A study of Mus musculus with 6 samples.

Results

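Olfactory receptor genes carried 1109 of the 27095 gene windows in which chromatin accessibility was counted in medullary epithelial cells of the thymus that carry much MHC class II. They were the windows whose symbol was Olfr followed by a number only. The 49 members with a mean count of 50 or more over the 6 libraries, taken without regard to group, are called accessible, and the other 1060 weak. The name is relative to the family, since the median mean count of the 49 was 78.7, against 124.2 over all windows. Another 17 symbols that begin with Olfr carried a suffix and were not included. The 3 Kat7 knockout and 3 wildtype libraries came from C57BL/6 mice, are separate biological replicates by the design text, and were made by ATAC-seq, in which the transposase Tn5 cuts and tags open DNA. KAT7, also called HBO1, belongs to the MYST group of histone acetyltransferases. Neither the driver of the Kat7 deletion, nor the deleted part of the gene, nor the age of the mice is given in the sources used here. By their coordinates the windows reached from 3000 bases upstream of the gene start to the end of the gene or to 2000 bases downstream, whichever came first.

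Olfactory receptors are G protein-coupled receptors and form the largest gene family of the mouse. They lie in clusters on many chromosomes, usually have their coding sequence in a single exon, and are divided into class I receptors, which lie together on chromosome 7, and class II receptors. In the nose a mature sensory neuron expresses a single allele of a single receptor, and the other receptor genes are held in heterochromatin. Medullary thymic epithelial cells are known for transcribing genes of other tissues at low levels, which exposes developing T cells to those self-antigens.

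The promoters below show how accessible receptor windows and a weak one read. Olfr94 had the highest count of the family, Olfr543 and Olfr287 were called higher in knockout cells, Olfr1121 had the largest loss, and Olfr73, a receptor for eugenol, was among the weak windows. Each line gives the 250 bases before the annotated gene start from RefSeq, build GRCm38.p6, 5′ to 3′ on the strand of the gene. Capitals mark matches on either strand to TAATTA or TAATGA, the letters bound by homeodomain factors such as LHX2, to CCCNNGGG, the core of the Olf/Ebf motif, or to TATAAA. The stretches are chr17:37197967-37198216, chr7:102477903-102478152, chr15:98221057-98221306, chr2:87371284-87371533 and chr2:88035138-88035387, in the order of the lines, with Olfr1121 on the plus strand and the others on the minus strand.
Olfr94: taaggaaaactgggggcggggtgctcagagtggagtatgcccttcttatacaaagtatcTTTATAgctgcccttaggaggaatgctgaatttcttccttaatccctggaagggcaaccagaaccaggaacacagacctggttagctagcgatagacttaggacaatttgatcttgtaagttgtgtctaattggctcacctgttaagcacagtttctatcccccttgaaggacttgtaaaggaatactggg
Olfr543: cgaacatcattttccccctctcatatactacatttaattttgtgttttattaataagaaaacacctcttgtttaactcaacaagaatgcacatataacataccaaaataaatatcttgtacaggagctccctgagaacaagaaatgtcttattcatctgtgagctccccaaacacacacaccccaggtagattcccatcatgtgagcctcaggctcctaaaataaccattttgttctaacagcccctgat
Olfr287: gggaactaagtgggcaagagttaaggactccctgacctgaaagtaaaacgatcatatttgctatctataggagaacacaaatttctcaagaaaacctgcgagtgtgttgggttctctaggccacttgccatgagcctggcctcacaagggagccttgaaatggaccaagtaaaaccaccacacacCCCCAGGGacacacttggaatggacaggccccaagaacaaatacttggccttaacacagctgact
Olfr1121: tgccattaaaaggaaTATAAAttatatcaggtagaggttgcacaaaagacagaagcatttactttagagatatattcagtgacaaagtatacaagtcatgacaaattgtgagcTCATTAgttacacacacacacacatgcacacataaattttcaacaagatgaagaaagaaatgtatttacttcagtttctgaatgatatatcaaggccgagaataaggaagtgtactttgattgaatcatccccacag
Olfr73: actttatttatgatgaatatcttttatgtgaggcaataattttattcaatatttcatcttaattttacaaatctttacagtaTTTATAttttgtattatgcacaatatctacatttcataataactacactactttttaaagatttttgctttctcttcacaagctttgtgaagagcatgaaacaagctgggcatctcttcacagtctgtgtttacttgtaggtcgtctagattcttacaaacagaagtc

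The promoter table held 937 of the 1109 members, 44 of the 49 accessible ones among them, and for 900 its gene start equalled that of the window. In 682 of the 937, 72.8%, the letters at the annotated start were ATG, against 6.75% of all 27025 promoters, so the annotated start was mostly the start of the coding sequence and not that of a transcript. Olfr94, Olfr1121 and Olfr73 were of this kind, and the windows of Olfr543 and Olfr287 were not. Median GC content was 40.7% in the accessible members and 35% in the weak members, against 52.7% in all promoters, and CpG observed over expected was 0.0899 and 0.109, against 0.389. TAATTA stood in 15.9% of accessible and 18.7% of weak members, against 5.31% of all promoters of the same length of 300 bases. TAATGA stood in 36.4% and 28.4%, against 9.99%. CCCNNGGG stood in 11.4% and 2.69%, against 13.4%, and TATAAA in 29.5% and 41.4%, against 14.2%. These shares describe letters in a window and were not tested. The start was ATG in 56.8% of accessible and 73.6% of weak members, so the compared stretches differ in their place relative to a transcript start. The share of CCCNNGGG in accessible members rests on 5 of 44 promoters. Of the sequences, 16 matched another member at 95% or more of their positions, and 4 were identical to another, so reads from such members could be split between them.

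The targeted gene was checked first. The Kat7 window (chr11:95308246-95313246, mm10) held 11.9, 13.2 and 38.3 CPM (counts scaled by library total and TMM factor) in knockout libraries 1 to 3, against 290.5, 238.2 and 271.9 CPM in wildtype libraries 1 to 3, lower by a log2 fold change of -3.66 (standard error, SE, 0.57, edgeR quasi-likelihood test with Benjamini-Hochberg adjustment, adjusted p = 0.0143). All log2 fold changes are knockout over wildtype, and all adjusted p-values come from this test over all tested windows, with a threshold of 0.05. Library totals lay between 15482439 and 19740835 counts in knockout and between 15494911 and 19832326 in wildtype. Pearson's r of log2 CPM was taken over the tested windows only, without those that missed the filter on low counts. It was 0.991 to 0.995 for libraries of 1 group and 0.967 to 0.98 for libraries of different groups. Beside the marker counts that follow, 6.36% of all tested windows were called higher and 20.2% lower. Of 11 windows of medullary epithelial genes, 2 were higher in knockout cells, Krt5 and Foxn1, none was lower, and their summed level lay between 1971 and 2388 CPM in knockout and between 1790 and 1933 CPM in wildtype. Of 6 olfactory neuron genes 5 were lower in knockout, and their summed level was 95.2 to 100.6 CPM in knockout libraries and 151.6 to 172.5 CPM in wildtype libraries. That of 6 thymocyte genes was 36 to 38.3 CPM in knockout libraries and 27.8 to 30.9 CPM in wildtype libraries, and 3 of them, Cd4, Cd8a and Ptprc, were higher in knockout. Of 3 endothelial genes 2 were lower, at 13.4 to 16.8 CPM in sum in knockout libraries and 28.9 to 32.7 CPM in wildtype libraries, and of 3 mesenchymal genes 2 were lower, at 67.6 to 70.8 CPM in knockout libraries and 96.2 to 99.2 CPM in wildtype libraries. Of 3 B cell genes 1 was lower, at 14.7 to 15.4 CPM in sum in knockout and 19 to 21.7 CPM in wildtype libraries. Of 5 myeloid and dendritic cell genes 2 were lower. Their sums overlapped, at 62.7 to 73.2 CPM in knockout and 66.2 to 71.3 CPM in wildtype libraries. None of 3 neuroendocrine genes was called. Omp, Gnal, Adcy3, Cnga2 and Rtp1 of the olfactory neuron genes are also in the list of 36 genes below. No marker list was at 0 in either group. Whether other cell types in the sort had a part in the receptor values was not tested.

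Knockout library 1 stood apart from the other knockout libraries at weak windows. The median weak receptor window held 0.687 CPM in it, against 1.37 and 1.53 CPM in knockout libraries 2 and 3, and the median of the 9118 other windows with a mean count under 50 held 0.802, 1.43 and 1.53 CPM in the same libraries. The medians and the numbers of calls of weak windows are therefore given with and without it. Bitter taste receptor windows were an exception, with medians of 2.58, 2.86 and 3.54 CPM in knockout libraries 1 to 3 and 0.922, 1.79 and 1.42 CPM in wildtype libraries 1 to 3.

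Accessibility was low and even across the family. The median member had a mean count of 17.2 over the 6 libraries, with quartiles of 14 and 21.8, and 893 members, 80.5%, lay between 10 and 25. Only 49 members reached a mean count of 50, and 1060 stayed under it. At a limit of 25 the number was 190, and at 100 it was 21. The members just above 50 were Olfr148 with a mean count of 50.3, Olfr368 with 51.5 and Olfr921 with 51.8, and those just below were Olfr291 and Olfr644 with 49.3 and Olfr1046 with 49.2. The split is thus a cut through a thin tail. Olfr769 alone was at 0 in every library, and its window lies wholly inside others. The windows were close in size, with a median length of 3945 bases, and 15 of them shared bases with another window.

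**Figure D1:**
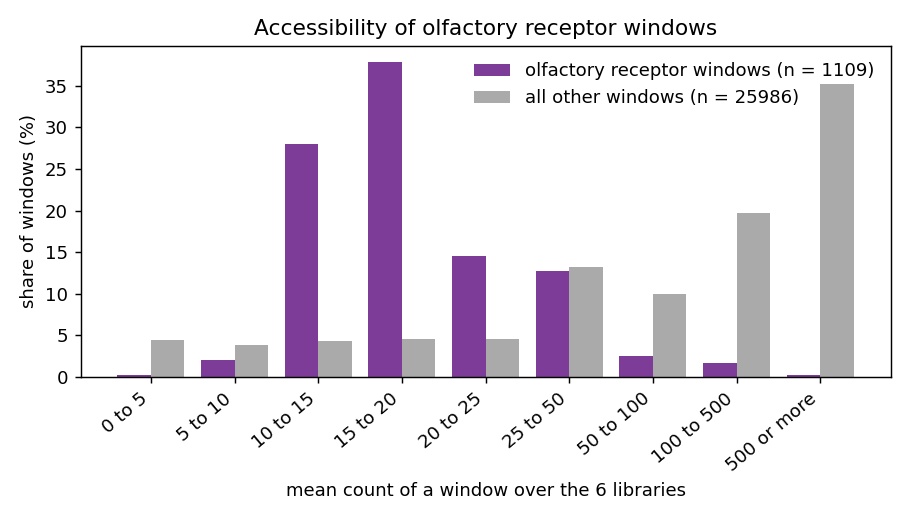
Share of windows (%, vertical axis) by mean count over the 6 libraries (horizontal axis) for the 1109 olfactory receptor windows and the 25986 other windows. Receptor windows pile up at low counts, with 37.9% between 15 and 20, where 4.61% of the other windows lie, and 0.271% at 500 or more, against 35.2% of the others.

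Accessible members lay nearer to other genes than weak ones. Within 50 kb of a window of another kind were 67.3% of accessible and 22.9% of weak members. Of 48 members within 10 kb of the nearest window of another kind, 7 had a mean count of 50 or more (14.6%), and of 228 members at 10 to 50 kb, 26 had (11.4%). Between 50 and 200 kb it was 13 of 394 (3.3%), and beyond 200 kb 3 of 439 (0.683%). The median distance was 33 kb for accessible and 143.7 kb for weak members. Weak members followed the same order, with median mean counts of 22.3, 20.8, 17.7 and 15 in the 4 distance classes. No accessible member shared a base with another window, so overlap took no counts from them.

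Across all members 27 were called higher in knockout cells and 21 lower, of 1055 tested (2.56% and 1.99%). Of all tested windows 6.36% were called higher and 20.2% lower, so both shares were below the background. The remaining 54 members did not pass the filter on low counts, with mean counts up to 13.67. In bulk chromatin, fewer cells with an open window and less opening in each cell cannot be told apart. Among the 49 accessible members 6 were higher (12.2%) and 14 lower (28.6%), beside 8.16% and 28.4% of the other windows with a mean count of 50 or more. The median mean count was 78.7 in these members and 613.2 in those other windows, so the shares are not matched for count. Among the 1006 tested weak members 21 were higher (2.09%) and 7 lower (0.696%), beside 2.52% and 2.8% of the other weak windows. The median log2 fold change was -0.09 in accessible members, 0.55 in tested weak members, 0.24 in the other weak windows and 0.04 in all tested windows. A window near the filter can pass through the group in which it is high, and the median of all members without a filter was 0.52. With offsets that remove the trend of fold change with accessibility (loess offsets), 18 accessible members were higher and 9 lower. Of the 16868 other windows with a mean count of 50 or more, these offsets called 4035 higher and 4256 lower. The median with loess offsets was 0.18 in all tested members and 0.03 in the other weak windows. Without knockout library 1 the accessible members gave 9 higher and 13 lower, and the median log2 fold change was -0.04 in accessible members, 0.84 in weak members, 0.81 in all members and 0.44 in the other weak windows.

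The number of members called higher moved far more with the setting than the number called lower. DESeq2's Wald test called 13 members higher and 17 lower, beside 7.73% and 16.8% of all windows. DESeq2's size factors in edgeR gave 49 and 21 members, beside 7.64% and 18.1%. Library totals gave 12 and 16, beside 11.8% and 21.4%, and loess offsets 37 and 24, beside 17.4% and 19.7%. A filter at a mean count of 10 gave 34 and 21, beside 6.38% and 20.2%, and no filter 27 and 21, beside 7.05% and 20.6%. Leaving out libraries gave the widest range of calls higher. Libraries 2 and 3 of each group gave 228 members higher and 22 lower, beside 10.6% and 22.6% of all windows. Without knockout library 1 it was 348 and 20, beside 12.6% and 22.6%. Without knockout library 2 it was 8 and 18, beside 4.34% and 16.9%, and without knockout library 3 it was 8 and 22, beside 6.14% and 18.9%. The count was also low without wildtype library 1, with 10 and 19 members, beside 2.73% and 17.6%. Without wildtype library 2 it was 19 and 16, beside 7.42% and 20.9%, and without wildtype library 3 it was 28 and 12, beside 4.41% and 18.2%.

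**Figure D2:**
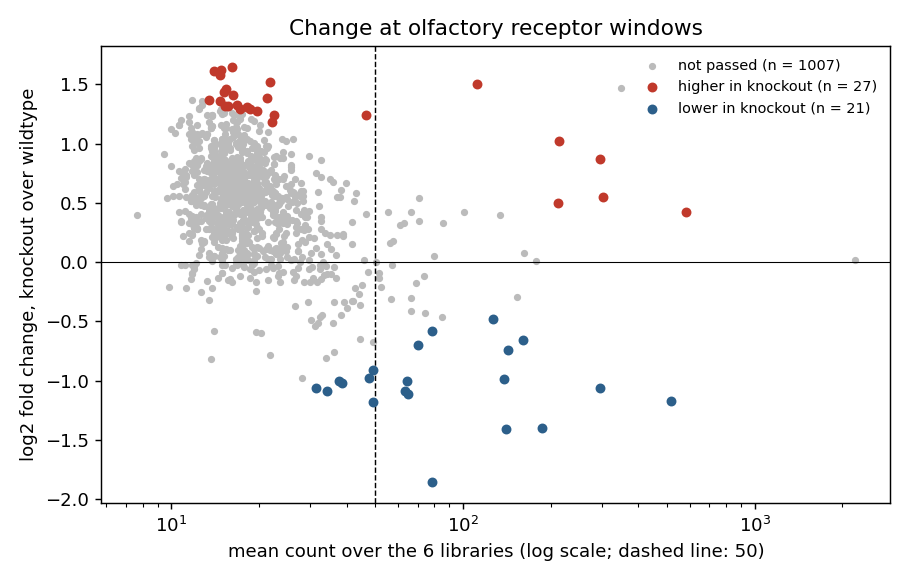
Log2 fold change, knockout over wildtype (vertical axis), against the mean count over the 6 libraries (horizontal axis, log scale) for the 1055 tested receptor windows; each point is a window, coloured by whether it was called higher (27), lower (21) or neither (1007), and the dashed line marks a mean count of 50. Calls in both directions lie right of the line, and the weak windows left of it sit mostly above 0.

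Olfr94 (chr17:37196806-37200966, mm10) was by far the most accessible member, with a mean count of 2202. It held 148.2, 118.5 and 121.3 CPM in knockout libraries 1 to 3, against 128.6, 123.6 and 130.3 CPM in wildtype libraries 1 to 3. The groups overlapped, and the log2 fold change was 0.02 (SE 0.12, adjusted p = 0.926). Its window lay 0.914 kb from that of Ubd, which encodes a ubiquitin-like modifier and was itself accessible with a mean count of 2616. Ubd was higher in knockout cells by 0.34 on the log2 scale (adjusted p = 0.0267).

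Olfr94 belongs to the cluster linked to the MHC on chromosome 17 (37085191 to 38336097), whose 46 members lie among the class Ib MHC genes H2-M2 and H2-M3. The cluster held 8 accessible members, the highest number of any, namely Olfr94, Olfr107, Olfr110, Olfr95, Olfr90, Olfr96, Olfr109 and Olfr98. None of these 8 was called. Olfr107 held 29.3, 31.9 and 29.9 CPM in knockout libraries, against 5.43, 18.3 and 9.62 CPM in wildtype libraries. The groups did not overlap, the wildtype libraries differed widely among themselves, and the log2 fold change of 1.47 did not pass (SE 0.47, adjusted p = 0.106), though it passed in 5 of the 14 other settings, including DESeq2 and the loess offsets. The only called member of the cluster was the weak Olfr103, with 3.72, 3.76 and 4.09 CPM in knockout libraries and 1.02, 1.72 and 2.18 CPM in wildtype libraries, higher by 1.24 on the log2 scale (SE 0.31, adjusted p = 0.000404).

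The 6 accessible members that rose lay on 4 chromosomes, and in each the knockout libraries were above all wildtype libraries. Over all windows 13% had all knockout libraries above all wildtype libraries, and 22.8% had them below. Called members were picked on these same values, so their separation adds no support to the calls. Olfr287 (chr15:98219056-98224056, mm10) had the largest rise, with 10.9, 9.49 and 8.86 CPM in knockout libraries and 2.36, 3.83 and 4.25 CPM in wildtype libraries, which is 1.50 on the log2 scale (SE 0.19, adjusted p = 2.46e-14). The nearest window of another kind, that of the linker histone gene H1f7 at 31.9 kb, was higher by 1.00 on the log2 scale. Olfr459 on chromosome 6 rose by 1.02 (SE 0.14, adjusted p = 1.63e-11), with 19.1, 16.5 and 15 CPM in knockout libraries, against 4.87, 12.2 and 8.32 CPM in wildtype libraries. Olfr543 (chr7:102476773-102480902, mm10), a class I receptor at the edge of its cluster, held 20.8, 22.3 and 24.2 CPM in knockout libraries and 9.78, 15.1 and 12.2 CPM in wildtype libraries, and rose by 0.87 (SE 0.13, adjusted p = 1.21e-10).

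The other 3 lay in a cluster of 19 members on chromosome 1. Olfr433, Olfr432 and Olfr429 had log2 fold changes of 0.42, 0.50 and 0.55, with adjusted p-values of 0.00132, 0.00155 and 8.53e-05. Olfr433 held 42.3, 37.5 and 37.3 CPM in knockout libraries and 23.9, 35 and 29.2 CPM in wildtype libraries, and lay 4.18 kb from the window of Ifi205, an interferon-inducible gene that rose by 0.63. Olfr432 held 16, 13.1 and 14.7 CPM in knockout libraries and 8.4, 11.6 and 11.1 CPM in wildtype libraries. Olfr429 held 22.6, 21.5 and 19.2 CPM in knockout libraries and 12.8, 16.5 and 14.3 CPM in wildtype libraries. Between Olfr432 and Olfr429 lay Olfr430, a weak window with a log2 fold change of -0.06 (adjusted p = 0.941). Olfr433 and Olfr432 missed the threshold without wildtype library 1, where they reached 0.28 and 0.37, and with libraries 2 and 3 of each group only.

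The 14 accessible members that fell lay on 6 chromosomes in 8 clusters, and in each the knockout libraries were below all wildtype libraries. Choosing members by call favours such a separation here too. Olfr1121 (chr2:87368534-87372478, mm10) held 1.78, 1.49 and 2.63 CPM in knockout libraries, against 7.12, 6.64 and 7.67 CPM in wildtype libraries, so that its log2 fold change was -1.86 (SE 0.23, adjusted p = 3.35e-14). Olfr175 on chromosome 16 held 4.12, 4.72 and 4.64 CPM in knockout libraries and 10.4, 12.1 and 13.3 CPM in wildtype libraries, and fell by 1.41 (adjusted p = 1.09e-15). Olfr1033 on chromosome 2, the most accessible of those that fell, held 19.1, 16.7 and 19.7 CPM in knockout libraries and 41.2, 39.6 and 44 CPM in wildtype libraries, and fell by 1.17 (SE 0.12, adjusted p = 2.39e-22). In these 3 members the lowest wildtype library stood far above the highest knockout library. Olfr1137 on chromosome 2 fell by 1.06, with 11.3, 10.9 and 11.1 CPM in knockout libraries and 21.9, 24.1 and 23.5 CPM in wildtype libraries, and its neighbour Olfr1136 fell by 0.70.

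Olfr156 and Olfr157 were neighbours on chromosome 4 and fell by 0.99 and 1.40, with adjusted p-values of 3.11e-08 and 3.07e-19. Olfr157 held 4.93, 5.73 and 7.21 CPM in knockout libraries, against 16.4, 13.6 and 17 CPM in wildtype libraries. The window of Reck, a membrane-anchored inhibitor of metalloproteinases 33 kb away, fell by 1.04. In the cluster of 24 members on chromosome 11, Olfr222 and Olfr325 fell by 1.00 and 1.09, beside a fall of 0.85 for Nlrp3, the inflammasome sensor nearest to Olfr222, and of 1.02 for Lypd8l, nearest to Olfr325. Olfr536 and Olfr530 on chromosome 7 fell by 0.66 and 1.11. Olfr536 held 6.82, 6.45 and 8.68 CPM in knockout libraries and 9.22, 14.6 and 10.9 CPM in wildtype libraries. With loess offsets Olfr1136 and Olfr536 missed the threshold at -0.40 and -0.19. Olfr520 on the same chromosome held 6.53, 6.62 and 5.62 CPM in knockout libraries and 9.37, 10.5 and 11.6 CPM in wildtype libraries. The remaining 3 were Olfr520, Olfr1328 and Olfr974, which fell by 0.74, 0.58 and 0.48, and which missed the threshold with loess offsets at -0.27, -0.25 and -0.02. DESeq2's Wald test and library totals also ended the calls of Olfr1136, Olfr1328 and Olfr974, with adjusted p-values of 0.0527, 0.0911 and 0.0891 and of 0.0541, 0.078 and 0.0539. So did leaving out a library for Olfr1136, Olfr1328 and Olfr974, the first without wildtype library 2 or 3, the second when any 1 library other than knockout library 3 was left out, and the third without knockout library 2 or wildtype library 3. The nearest window of another kind was called lower for 4 of the 14 that fell, with Reck shared by Olfr156 and Olfr157. It was called higher for 1 of the 14 and neither for 9. For the 6 that rose it was called higher for 4, of which 3 share Ifi205. For the 29 accessible members without a call it was higher for 6, lower for 2, neither for 20 and not tested for 1. Over all tested windows the shares were 6.36% higher and 20.2% lower.

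**Figure D3:**
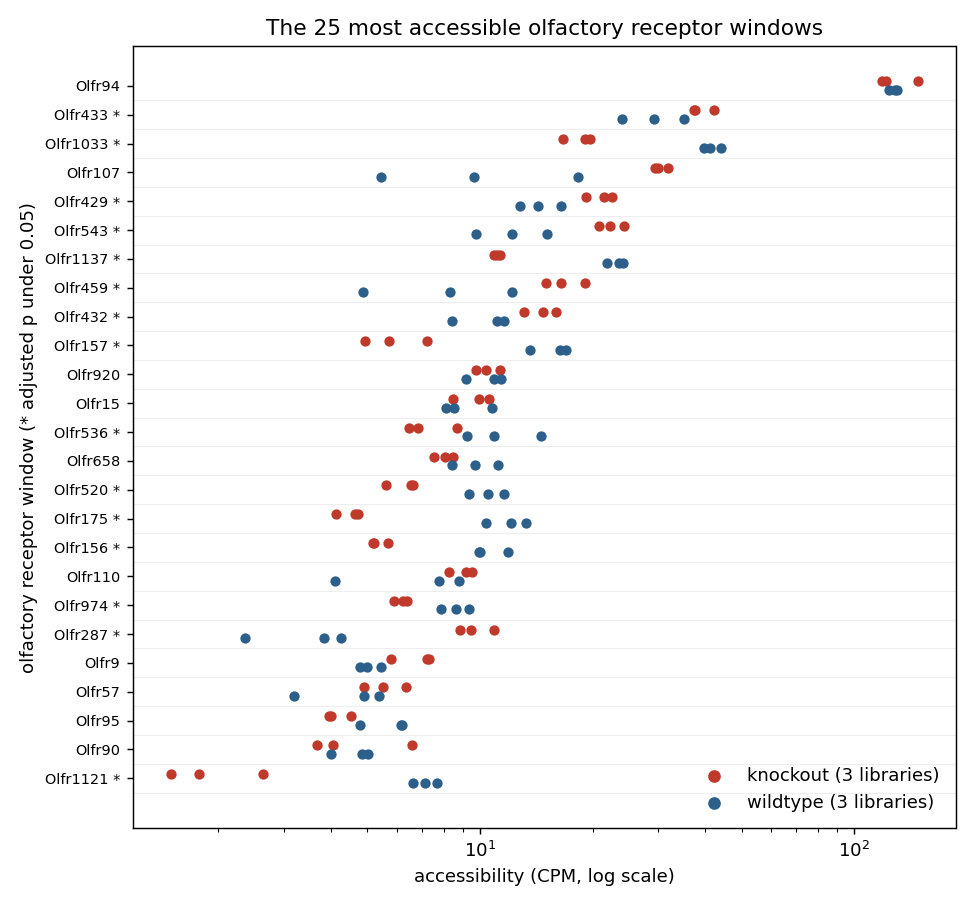
Accessibility (CPM, horizontal log axis) of the 25 receptor windows with the highest mean counts, 1 window a row, with the 3 knockout libraries in red above the 3 wildtype libraries in blue; an asterisk marks an adjusted p under 0.05. Olfr94 stands far to the right with its groups overlapping, and the called windows have their groups apart, in both directions.

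Of the 15 members with the highest counts, Olfr920, Olfr15 and Olfr658 were also without a call besides Olfr94 and Olfr107. Olfr920 held 9.79, 10.4 and 11.3 CPM in knockout libraries and 9.17, 11.4 and 10.9 CPM in wildtype libraries. Olfr15 held 10.6, 8.48 and 9.96 CPM in knockout libraries and 10.8, 8.11 and 8.5 CPM in wildtype libraries. Olfr658, a class I receptor, held 7.56, 8.48 and 8.07 CPM in knockout libraries and 11.2, 8.43 and 9.68 CPM in wildtype libraries. In these 3 members the groups overlapped, with adjusted p-values between 0.17 and 0.978. With loess offsets Olfr920 and Olfr15 were called higher, at 0.48 (adjusted p = 0.00777) and 0.55 (adjusted p = 0.0066). The other 24 accessible members without a call had mean counts between 50.3 and 134.0 and log2 fold changes between -0.46 and 0.54. Of the 20 calls among accessible members 13 held in every other setting tried, and none changed sign.

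The weak members were described as a body, since few passed alone. Their share of all counts was 0.0712%, 0.158% and 0.18% in knockout libraries 1 to 3 and 0.0743%, 0.103% and 0.118% in wildtype libraries 1 to 3. The groups overlapped through knockout library 1, and knockout libraries 2 and 3 were above all wildtype libraries. The accessible members took 0.0444%, 0.0496% and 0.0528% in knockout libraries and 0.0462%, 0.0537% and 0.0542% in wildtype libraries, also with overlap. All members together took 0.185% ± 0.0618 in knockout and 0.15% ± 0.0265 in wildtype (SD, n = 3 each). In 984 of the 1060 weak members (92.8%) knockout library 1 was below knockout libraries 2 and 3, and in 687 (64.8%) knockout libraries 2 and 3 were both above every wildtype library. Wildtype library 1 was the lowest wildtype library in 728 (68.7%). These shares were not taken over other windows, so they have no background here. The median of the other windows with a mean count under 50 was also higher in knockout libraries 2 and 3. It was 1.43 and 1.53 CPM there, against 0.819 to 1.18 CPM in wildtype libraries. A level of 3 counts, the limit that a count of 0 allows, was 0.154 to 0.192 CPM, under the medians of the weak members.

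Weak receptor windows and the other windows with a mean count under 50 were high and low in nearly the same libraries. The weak receptor windows had 0.173, 0.334 and 0.384 CPM per kb in knockout libraries, against 0.143, 0.211 and 0.24 CPM per kb in wildtype libraries. The others had 0.172, 0.31 and 0.342 CPM per kb in knockout libraries and 0.183, 0.23 and 0.26 CPM per kb in wildtype libraries. The order of the libraries was thus the same in both kinds of window, except that knockout library 1 lay above wildtype library 1 in the receptor windows and below it in the others. The part of library differences at weak windows of all kinds in the receptor values was not tested. Groups of the 1060 weak members did not overlap in 111 with knockout higher (10.5%) and in 16 with knockout lower (1.51%), beside 7.55% and 6.95% of the other weak windows.

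**Figure D4:**
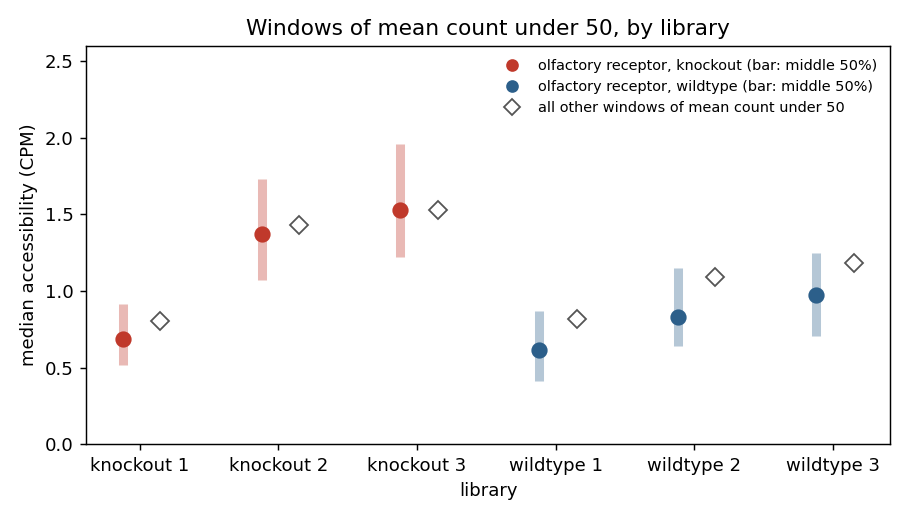
Median accessibility (CPM, vertical axis) in each library of the 1060 weak receptor windows (filled circles, with bars for the middle 50% of windows) and of the 9118 other windows with a mean count under 50 (open diamonds). Knockout library 1 lies at 0.687 CPM, within the wildtype range of 0.615 to 0.974 CPM, and knockout libraries 2 and 3 lie above all wildtype libraries at 1.37 and 1.53 CPM.

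Leaving out knockout library 1 changed the number of weak calls most. Then 339 weak members were called higher and 7 lower, of 1050 tested (32.3% and 0.667%). Of the other weak windows 20.7% were then called higher and 3.46% lower, and of all tested windows 12.6% and 22.6%. All 21 of the first calls were among the 339. Other settings kept fewer of the same 21, namely 13 with loess offsets, 4 with DESeq2's Wald test and 3 without wildtype library 1. Without knockout library 2 or without knockout library 3 only 2 were called higher, and without wildtype library 1 5 were. Of 823 weak windows 3900 to 4000 bases long, the median raw count was 11, 22 and 24 in knockout libraries and 11, 13 and 16 in wildtype libraries. Their variance over mean was 3.49, 2.81 and 2.56 in knockout libraries and 5.88, 3.92 and 4.68 in wildtype libraries, where 1 is the value of pure counting error. Weak windows thus differed from each other more than counting error gives in every library.

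The 21 weak members called higher had mean counts between 13.5 and 46.5 and rose by 1.18 to 1.65 on the log2 scale, with adjusted p-values between 0.000404 and 0.0469. Olfr1153 rose most, with raw counts of 15, 24 and 34 in knockout libraries, against 11, 9 and 4 in wildtype libraries (SE 0.53, adjusted p = 0.00888). Olfr1206, Olfr1388, Olfr481 and Olfr860 followed with 1.62, 1.61, 1.58 and 1.52, then Olfr1100, Olfr1158, Olfr891 and Olfr711 with 1.46, 1.44, 1.41 and 1.39. In 12 of the 21 all knockout libraries were above all wildtype libraries, a separation that choosing members by call favours. Olfr1388 and its neighbour Olfr1389 on chromosome 11 were called in the same direction.

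The 7 weak members called lower had the higher counts of the weak class, between 31.5 and 49.3. In all 7 the knockout libraries were below all wildtype libraries, which choosing by call again favours. Olfr644, a class I receptor, held 0.802, 2.03 and 2.44 CPM in knockout libraries and 4.05, 3.64 and 4.25 CPM in wildtype libraries, and fell by 1.18 (SE 0.30, adjusted p = 0.000501). Its neighbour Olfr643 fell by 1.09 (adjusted p = 0.0171). Olfr1329, next to Olfr1328 on chromosome 4, fell by 0.98, and Olfr1109, Olfr1009, Olfr1029 and Olfr1046 on chromosome 2 fell by 1.06, 1.02, 1.00 and 0.91.

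Members formed 49 clusters on 17 chromosomes when a gap over 1 Mb ended a cluster. Of these, 22 clusters of 10 or more members held 1021 members, and 9 clusters were single genes. Accessible members lay in 22 clusters, 12 of which held 1 and 10 of which held 37 in all. Large clusters had 40 accessible members of 1021 (3.92%), clusters of 2 to 9 members had 8 of 79 (10.1%) and single genes 1 of 9 (11.1%). The largest cluster, on chromosome 2 (85330967 to 90401674), held 224 members, of which 4 were accessible. Of its 204 tested members 6 were called higher and 8 lower, beside 6.36% and 20.2% of all tested windows. The class I cluster on chromosome 7 (102476773 to 105369317) held 126 members, of which 5 were accessible. Of its 125 tested members 2 were called higher and 2 lower. The cluster of 97 members on chromosome 9, all tested, had 4 accessible members, 1 call higher and 1 lower. Clusters of 66 members on chromosome 7 and of 62 on chromosome 19 had no accessible member. Of their 64 and 56 tested members 4 and 0 were called higher and none lower. The cluster of 56 on chromosome 10, with 51 tested, had 3 accessible members, 2 calls higher and none lower.

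The level of weak windows ranked the libraries alike in the large clusters. In all 22 clusters of 10 or more members knockout library 1 was below knockout libraries 2 and 3, and wildtype library 1 was the lowest wildtype library. With all libraries the groups overlapped in each of the 22, and without knockout library 1 the knockout libraries were above all wildtype libraries in each of the 22. These clusters share their libraries and are not independent of each other. The ratio of the mean weak level, knockout over wildtype, lay between 1.07 and 1.63, and the median log2 fold change between 0.20 and 0.74. In the class I cluster the weak level was 0.183, 0.392 and 0.425 CPM per kb in knockout libraries and 0.181, 0.256 and 0.296 CPM per kb in wildtype libraries. The cluster of 6 on chromosome 4 that holds Olfr156 and Olfr157 had a median log2 fold change of -0.34.

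**Figure D5:**
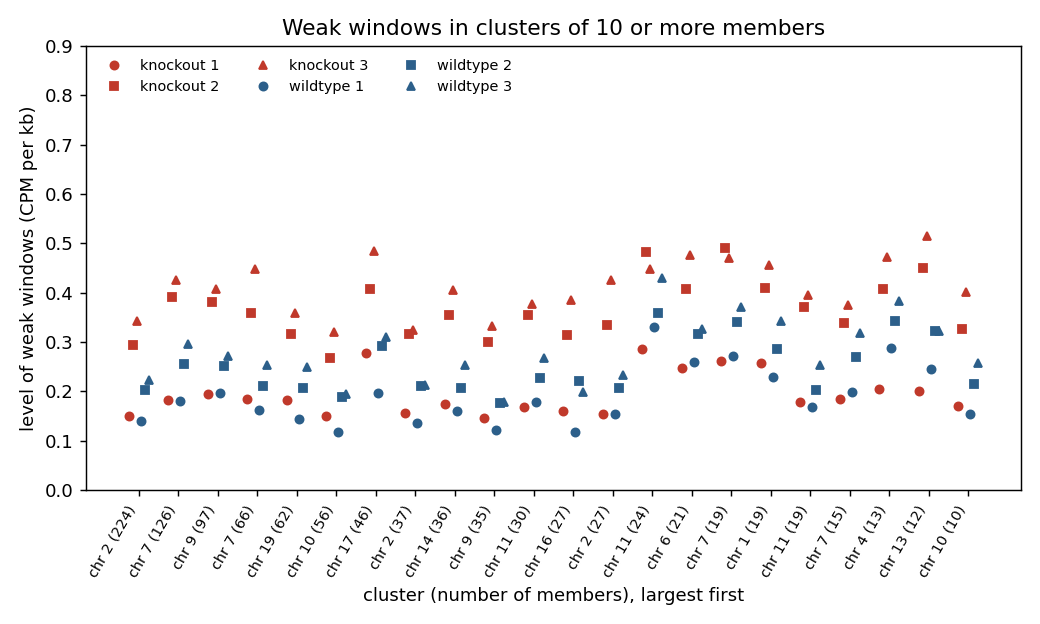
Level of weak windows (CPM per kb, vertical axis) in each of the 6 libraries for the 22 clusters of 10 or more members (horizontal axis, chromosome and number of members, largest first); red symbols are knockout and blue symbols wildtype libraries. In every cluster the red circle of knockout library 1 lies below the other red symbols, which lie above all blue symbols.

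Receptors known outside the olfactory epithelium or used as models of receptor choice were not singled out. All 12 of these members were without a call, 11 of them weak, with mean counts between 10.8 and 161.8 and log2 fold changes between -0.19 and 1.24. Olfr78, an acetate and propionate receptor of the carotid body and blood vessels, held 1.2, 1.85 and 2.38 CPM in knockout libraries and 0.871, 0.83 and 1.24 CPM in wildtype libraries (adjusted p = 0.144). Olfr16, known from sperm, held 2.18, 1.97 and 3.24 CPM in knockout libraries and 2.87, 2.43 and 3.13 CPM in wildtype libraries (adjusted p = 0.692). Olfr73 had the largest log2 fold change of the 12, 1.24 (SE 0.54, adjusted p = 0.0729), with raw counts of 6, 28 and 24 in knockout libraries, against 5, 6 and 14 in wildtype libraries. In these 3 members the groups overlapped. Olfr17, Olfr2, Olfr151, Olfr160, Olfr1507, Olfr544, Olfr1393, Olfr56 and Olfr15 completed the set.

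Vomeronasal and bitter taste receptors are other chemosensory families that lie in clusters. The tested Olfr windows had a median log2 fold change of 0.54, and 0.81 without knockout library 1. Of 190 tested Vmn1r windows 7 were higher and 1 lower, with a median log2 fold change of 0.62, and of 117 tested Vmn2r windows 11 were higher and none lower, with a median of 0.78. Of 34 tested Tas2r windows 22 were higher and none lower, with a median of 1.23. Of all tested windows 6.36% were higher and 20.2% lower. Without knockout library 1, 83 of 222 Vmn1r windows were higher with a median of 0.95, 76 of 121 Vmn2r windows with a median of 1.07, and 27 of 34 Tas2r windows with a median of 1.28, beside 12.6% of all windows. The Olfr median was below these 3 in both fits, and the differences were not tested.

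Genes that serve the receptors in olfactory neurons are a list of 36, of which 2 were higher and 12 lower in knockout cells, and 22 had no call. That is 5.56% and 33.3%, beside 6.36% and 20.2% of all tested windows and 8.16% and 28.4% of the windows of other genes with a mean count of 50 or more, which 33 of the 36 reached. Their median log2 fold change was -0.07, against 0.04 over all windows. Of 10 transduction genes 7 were lower, among them Gnal, the olfactory G protein subunit, which fell by 1.27, and Adcy3, the adenylyl cyclase of the cilia, which fell by 0.64. The channel subunit genes Cnga2, Cngb1 and Cnga4 fell by 0.97, 1.03 and 0.74, Omp, the olfactory marker protein gene, by 0.82, and Gng13 by 0.49. Omp held 37.6, 33.9 and 37.3 CPM in knockout libraries and 68.1, 57.1 and 66.5 CPM in wildtype libraries. Of 3 trafficking genes Reep1 fell by 0.89. Among 10 genes of receptor choice Lhx2, Ebf1 and Atf5 fell by 0.63, 1.56 and 0.99, and Ldb1 and Ebf3 rose by 0.32 and 0.65. Ebf1 held 21.5, 20.2 and 23.3 CPM in knockout libraries and 64.6, 62.6 and 64.3 CPM in wildtype libraries. Of 13 genes that silence receptor clusters Ehmt1, a histone H3 lysine methyltransferase, fell by 0.50, and the other 12 had no call. The windows of 9 of the 36 share bases with other windows, so their counts cover the unshared part. They are those of Cnga4, Cngb1 and Atf5, which fell, and of Emx2, Cbx3, Cbx5, Ehmt2, Suv39h1 and Ctcf, which had no call. Most of the window was shared for Atf5, Emx2, Cbx3, Cbx5 and Ctcf, which limits what could be called there.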

How the data were processed

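Chromatin accessibility was measured by ATAC-seq in 3 Kat7 knockout and 3 wildtype libraries of medullary thymic epithelial cells. The authors deposited a table of raw counts, 1 row for each gene window. Per the submitters' processing notes, featureCounts and build mm10 were used. Not given in the sources used here are the aligner, how duplicates were handled, whether reads were shifted for the offset of Tn5, and if the count was of fragments or of ends. Duplicates left in would raise single windows. The members and gene lists were chosen with earlier results of these data known. Windows were joined to symbols by gene identifier, and the tables of the single libraries held the same counts as the series table in all 6 cases.

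The test was edgeR 4.0.16 in R 4.3.3 (robust quasi-likelihood test, TMM factors, filterByExpr defaults, two-sided) on all 27095 windows, of which 24817 were tested, with Benjamini-Hochberg adjustment at 0.05. The biological coefficient of variation was 10.9%. Accessible members had a mean count of at least 50 over the 6 libraries, blind to group. Named were Kat7, the 15 accessible members with the highest counts (the others as ranges), the 10 largest calls in each direction, the members nearest to a mean count of 50, 12 known receptors, called list genes, and the 6 largest clusters together with those that hold accessible members. Alternatives were DESeq2 1.42.0, other scalings and filters, a replicate block and leaving out libraries. Windows report the unshared part where they overlap others. Intervals of counting error were not computed; reads carry no molecular identifiers, so a limit of 3 counts covers counting error only.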

Additional observations from a re-analysis of the deposited data

How the results depend on the processing

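With 27 members called higher, DESeq2's Wald test gave 13, DESeq2's size factors in edgeR 49, library totals 12, libraries 2 and 3 of each group 228, and leaving out a library 8 to 348. Of weak members called higher, 21 in the fit with all libraries, the same settings gave 6, 40, 6 and 221, and 2 to 339. Weak members tested numbered 1006 with all libraries and 1046 with libraries 2 and 3. The other windows with a mean count under 50 moved too, from 174 higher of 6894 tested with all libraries. They gave 266 with DESeq2's size factors, 72 with library totals and 1048 of 7243 with libraries 2 and 3. Members called lower numbered 12 to 22 without a library, and weak members called lower numbered 15 with loess offsets and 1 to 8 without a library. Loess offsets called 600 of the 6894 other windows with a mean count under 50 lower, against 193 in the fit with all libraries. Accessible members gave 18 higher and 9 lower with loess offsets. Of the 16868 other windows with a mean count of 50 or more, loess offsets gave 4035 higher and 4256 lower. Over all windows 1578 were called higher, against 2665 with libraries 2 and 3 only, 2933 with library totals, 4324 with loess offsets and 689 to 3178 without a library. The replicate block gave 2823 higher over all windows, 11.4% of those tested, 139 higher among members, and 131 higher and 11 lower among weak members. Deviations of same-numbered libraries correlated at 0.355, 0.0258 and 0.401 for numbers 1 to 3, and those of unlike-numbered libraries at -0.456 to 0.302. The labels do not say whether a number marks a shared litter or day, so the block was kept as an alternative only. Olfr94 changed sign to -0.09 with libraries 2 and 3 only or with loess offsets, -0.01 with library totals, -0.02 without a filter and -0.09 to 0.08 without a library. Olfr920 changed sign to -0.04, -0.02 and -0.03 under libraries 2 and 3, library totals and no filter, and to -0.09 to 0.05 without a library. Olfr15 reached -0.04 to 0.22 without a library, and Olfr658 0.18 with loess offsets. None of these 4 was called in the fit with all libraries; with loess offsets Olfr920 (0.48) and Olfr15 (0.55) were called higher. The count limit gave 190 members at 25 and 21 at 100, in place of 49. The causes were not tested. Counts near 17 a window limit what single weak members can show.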
